A study of Mus musculus with 11 samples.

Results

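Neutrophil-rich spots at 24 h are the places in 2 mouse liver sections where the transcripts of S100a8 and S100a9 were densest 24 h after acetaminophen (APAP). Spots off the tissue, spots in which fewer than 800 genes were detected and spots with over 20% of UMIs from mitochondrial genes were dropped, and the rule then kept the top 5% of each section by S100a8 plus S100a9 UMIs per 10000 UMIs of the spot. It found 210 spots among 4169 at 24 h and 25136 in the whole series, 127 of 2521 in section A and 83 of 1648 in section B. The reference was the spots of the same section with no UMI of either gene, 1691 in A and 605 in B. A UMI is a molecular tag that counts captured RNA molecules.

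Neutrophils are short-lived white cells that leave the blood for injured tissue within hours. S100A8 and S100A9 form calprotectin, a calcium-binding complex that fills much of the neutrophil's cytosol and is also made by monocytes. APAP overdose kills hepatocytes around the central vein, and neutrophils and then monocytes gather in and around the dead zone, drawn by chemokines, held by adhesion receptors on the vessel wall, and armed with granule proteins and an NADPH oxidase. Resident macrophages of the liver, the Kupffer cells, and surviving hepatocytes at the wound edge also respond. The comparison asked which other transcripts were gathered where the S100a8 and S100a9 transcripts were.

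The series measured spatial gene expression by Visium in 11 snap-frozen liver sections, 3 from uninjured liver at 0 h and 8 labelled POD. The injured sections were taken after APAP, 2 of them 24 h later, 2 of them 36 h later and 4 of them 48 h later. Per the study's methods the mice were adult males given APAP after a fast, and the assay had n = 1 for mouse liver at each time. The labels do not name the animal of a section, so the sections of a time were treated as sharing 1 animal. Every p-value below therefore covers only the spread between sections, which edgeR estimated largely over all genes together. Mouse, time and any batch cannot be told apart. A Visium spot is wider than a cell and mixes RNA of hepatocytes and of whatever else lies in it, so fewer cells of a type and less RNA per cell cannot be told apart in any value given here.

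The values that chose the spots are given as a description. S100a8 (ENSMUSG00000056054; GRCm38 chromosome 3, 90668978 to 90670035, plus strand) had 797 UMIs in all passing spots of section A and 1896 in section B, or 17.3 and 59.4 UMIs per 1000000 UMIs of the section. S100a9 (ENSMUSG00000056071; chromosome 3, 90692632 to 90695721, minus strand) had 949 and 2200, or 20.6 and 69.0 per 1000000. In the 0 h sections the same levels lay between 0.836 and 3.21 for S100a8 and between 0.697 and 2.95 for S100a9. Section B was thus richer than A, and the same top share took in lower densities in A.

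In section A the lowest chosen spot held 3 UMIs of the pair at a density of 1.75 per 10000, and the highest spot left out also held 3 at 1.73. In section B the spots on either side of the limit held 10 and 11 UMIs at 6.31 per 10000. The median chosen spot held 4 UMIs of the pair in A and 15 in B. The chosen spots carried 43.0% of all S100a8 and S100a9 UMIs in A and 36.2% in B. A chosen spot of A thus rested on fewer UMIs of the pair than one of B.

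**Figure D1:**
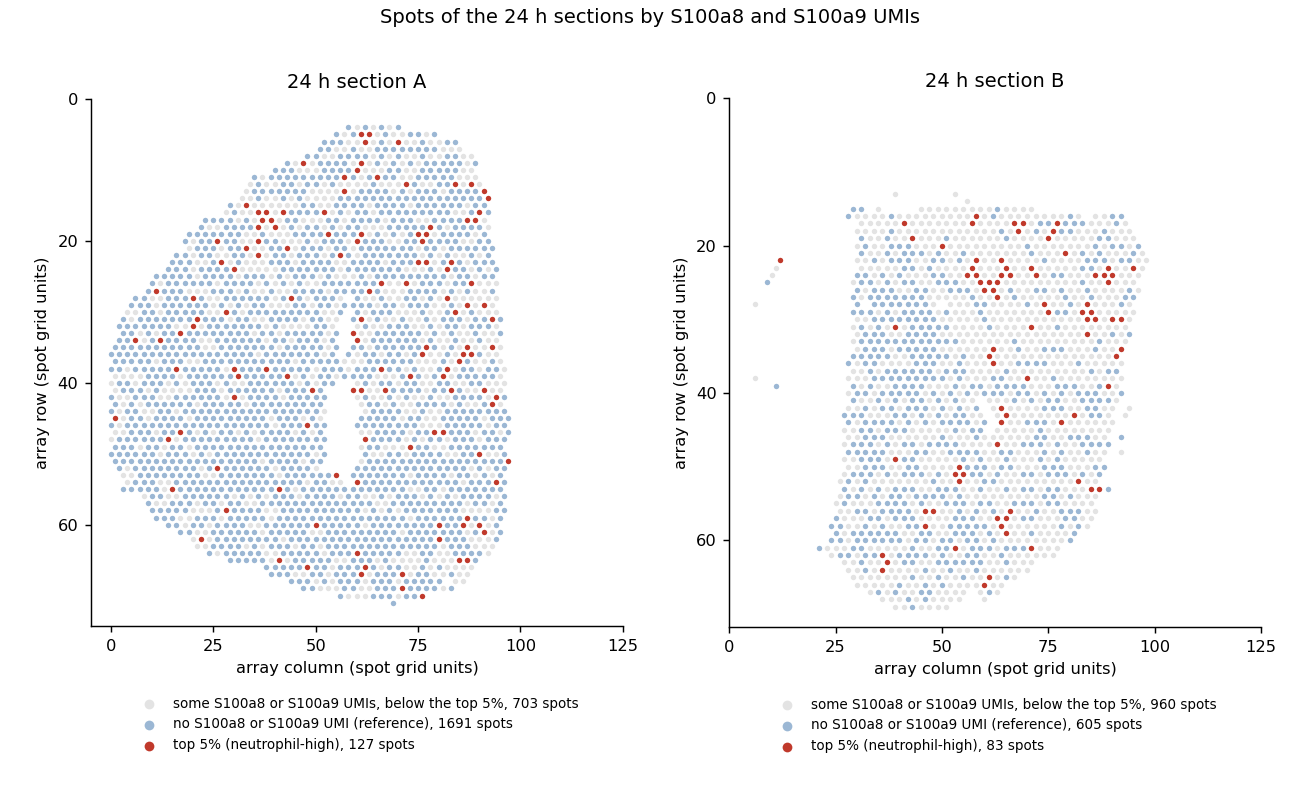
Passing spots of the 24 h sections A and B on the capture grid, with array column across and array row down, in spot grid units. Red points are the 127 and 83 neutrophil-high spots, blue points the 1691 and 605 reference spots, and grey points the rest, and the red points in section B lie in small groups more often than alone.

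Chosen spots neighboured each other more often than their share of all spots, but in A most of them touched no other. In section A 54 of 127 (42.5%) touched another chosen spot on the hexagonal grid, and in section B 64 of 83 (77.1%) did. Of all neighbours of chosen spots, 10.0% in A and 24.6% in B were chosen themselves, against 5.04% of all spots in either section. The map of spot classes shows the small groups in B, and most reference spots away from them. Only 34 reference spots in B touched a chosen spot, against 319 in A.

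The chosen spots differed from the reference in more than white cells. The median share of UMIs from 9 secreted hepatocyte genes was 10.7% against 13.9% in A and 10.6% against 14.5% in B. Median UMIs per spot were 15892 against 16826 in A and 15036 against 16912 in B. Mitochondrial UMIs took a median of 1.74% against 1.76% in A but 3.06% against 1.94% in B. Of the chosen spots, 29 (22.8%) in A and 34 (41.0%) in B were also among the 5% of spots richest in haemoglobin UMIs, against 3.08% and 0.661% of reference spots. The top 5% by 10 monocyte genes held 49 (38.6%) and 37 (44.6%) of the chosen spots, against 1.71% and 0.496% of reference spots. The part of these features in the values below was not tested, apart from the matched comparison and the comparison without haemoglobin-rich spots.

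The label was checked with other neutrophil genes, none of which the rule used. At least 1 UMI of Csf3r, Cxcr2, Retnlg, Il1r2, Mmp9, Trem1, Clec4d or Ly6g was found in 65 of 127 chosen spots in A (51.2%, Wilson 95% interval 42.6 to 59.7) and in 79 of 83 in B (95.2%, 88.3 to 98.1). Among reference spots, the share was 9.82% (8.49 to 11.3) in A and 19.2% (16.2 to 22.5) in B. After each spot was thinned to 5000 UMIs, which left out 5 shallower spots in A and 32 in B, the shares were 24.6% against 3.79% in A and 67.5% against 6.91% in B. Intervals cover counting error only. The 8 genes had 98 UMIs in the chosen spots of A and 310 in those of B. Clec4d, which monocytes also express, gave 40 and 114 of them. Ly6g itself, the classic surface marker of mouse neutrophils, had 1 UMI in the chosen spots of A and 0 in those of B, so the label rests on the other genes. A UMI of a lymphocyte gene was found in 14.2% of chosen against 9.46% of reference spots in A and in 20.5% against 9.09% in B, or 6.35% against 3.73% and 9.64% against 4.15% after thinning.

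For each section the UMIs of each class were summed, which gave 2050363 UMIs in the chosen and 29656993 in the reference spots of A, and 1266745 and 10298941 in those of B. Levels below are CPM, the UMIs of a gene per 1000000 UMIs of the sum after TMM scaling, and fold changes are log2 of chosen over reference. edgeR's quasi-likelihood test, with the section as a block, called 1169 of 11358 genes higher (10.3%) and 855 lower (7.53%) in the chosen spots at an adjusted p under 0.05. The 4 sums left 1 residual degree of freedom, against a median of 13.8 prior degrees of freedom taken from all genes. The spread behind a p-value thus came mostly from other genes. The median log2 fold change of all genes tested was -0.02. The balance depended on the scaling. Of the calls, 57.8% were higher with TMM and 83.1% with total-count scaling, which raised the median gene by 0.21. Without the block, 209 genes were called higher and 10 lower. Leaving out a section leaves 1 at 24 h, so such a fit took its spread from all other injured sections and assumed that the lone section varies as they do. In that form 1469 genes were higher and 1398 lower with both sections, 1196 and 1000 without section A, and 530 and 284 without section B. Values of gene lists are given as counts and medians, to be read against the 10.3% and 7.53%, and a list gene that entered the test only because the chosen spots raised its count had to differ.

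Most other neutrophil genes that could be tested were higher, receptor genes among them. Of 18 listed genes 9 were higher, 1 was lower, 3 were not called and 5 had too few counts to test, and the median over the 13 tested was 2.22. Csf3r (ENSMUSG00000028859; chromosome 4, 126024550 to 126044440, plus strand), the receptor for the growth factor G-CSF that keeps neutrophils alive, was at 13.1 CPM in the chosen and 2.10 in the reference spots of A. In B it was at 44.3 and 4.04 CPM. Both chosen values lay above both reference values, which held for 3172 of the 11358 genes tested, with the reverse for 3063. The log2 fold change of Csf3r was 3.06 (SE 0.304, edgeR adjusted p = 1.57e-05).

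Retnlg (ENSMUSG00000022651; chromosome 16, 48872621 to 48874496, plus strand), a secreted resistin-like protein of neutrophils, was at 5.86 against 0.420 CPM in A and 23.6 against 1.53 in B. Its log2 fold change of 3.86 (SE 0.420, edgeR adjusted p = 3.12e-05) was the highest of the list. Both reference levels lay below the filter on low counts. Retnlg thus entered the test only through the chosen spots, which fixed its direction. Mmp9 and Cxcl2, given below, fell under that filter in the reference spots of A, so a chosen sum had to pass for each. The same may hold for other genes with low reference levels, and list counts and medians include them. Clec4d (ENSMUSG00000030144; chromosome 6, 123262111 to 123275265, plus strand), a C-type lectin receptor of neutrophils and monocytes, was at 18.0 against 2.84 CPM in A and 84.1 against 5.24 in B, with a log2 fold change of 3.38 (SE 0.285, edgeR adjusted p = 4.09e-06). It led the genes of at least 20 CPM.

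Mmp9, a gelatinase stored in neutrophil granules, was higher by 3.78 on the log2 scale. Its level in A was 3.15 against 0.420 CPM, from 7 UMIs in the chosen spots, and in B 35.4 against 1.85. Slfn4 (3.01), the IL-1 decoy receptor gene Il1r2 (2.64) and the formyl peptide receptor genes Fpr2 (2.005) and Fpr1 (1.43) were also called higher. Il1r2 was at 1.35 CPM in the chosen spots of A, below the 2.18 CPM of the reference spots of B, so its groups overlapped. Histidine decarboxylase Hdc (1.32, edgeR adjusted p = 0.0635) and Mxd1 (1.19, adjusted p = 0.0697) were not called.

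Cxcr2, the receptor through which CXC chemokines draw neutrophils, was too sparse to test. It had 3 and 10 UMIs in the chosen spots of A and B and 1 in the reference spots of each. Mmp8, Trem1, Ly6g and Stfa2l1 were the other genes not tested. Wfdc21 ran against its list, at 2190 against 3477 CPM in A and 2560 against 5440 in B (log2 fold change -0.88, edgeR adjusted p = 0.00794). Msrb1, at 310 to 366 CPM in all 4 sums, was not called (-0.17). Both genes thus ran at or above their chosen-spot level in the reference spots of the same section.

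Oxidase genes were higher and most granule protein genes were too sparse to test. Of 14 listed genes 5 were higher, 1 was lower, 1 was not called and 7 were not tested. The higher genes encode parts of the phagocyte NADPH oxidase, the complex that makes superoxide. Ncf1 was at 21.6 against 5.82 CPM in A and 49.5 against 6.001 in B (log2 fold change 2.43, SE 0.271, edgeR adjusted p = 3.97e-05). Ncf4 (2.23), Cybb (1.69) and Cyba (1.53) were among them, each higher in the chosen spots of both sections.

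Genes of granule proteins, which are transcribed mainly while neutrophils mature in the marrow, had few UMIs. Camp and Ngp together had 37 UMIs in 8 of 127 chosen spots of A, 17 of them in a single spot and 0 UMIs in the 83 chosen spots of B, so they were not detected there at this depth. Ctsg had no UMI in any class, and Elane and Mpo had at most 0.738 CPM in any. Lcn2, a granule protein gene that hepatocytes also express in the acute phase response, was lower, at 395 against 679 CPM in A and 863 against 2013 in B (-1.004, edgeR adjusted p = 0.00183). Prtn3 was not called (-0.31).

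The chemokines that draw neutrophils through CXCR2 did not move together. Cxcl2 was higher (2.50, SE 0.451, edgeR adjusted p = 0.00182), at 4.06 against 1.30 CPM in A and 19.9 against 2.18 in B. Cxcl1 was lower (-1.22, SE 0.207, edgeR adjusted p = 0.00119), at 32.9 against 54.2 CPM in A and 43.5 against 144 in B. In the fit without section B its adjusted p was 0.05001, at -0.75. Beside spots matched on hepatocyte share, described below, Cxcl1 was not called (-0.28), with ratios of 0.29 in A and -0.77 in B. Cxcl3 and Cxcl5 had too few counts to test.

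**Figure D2:**
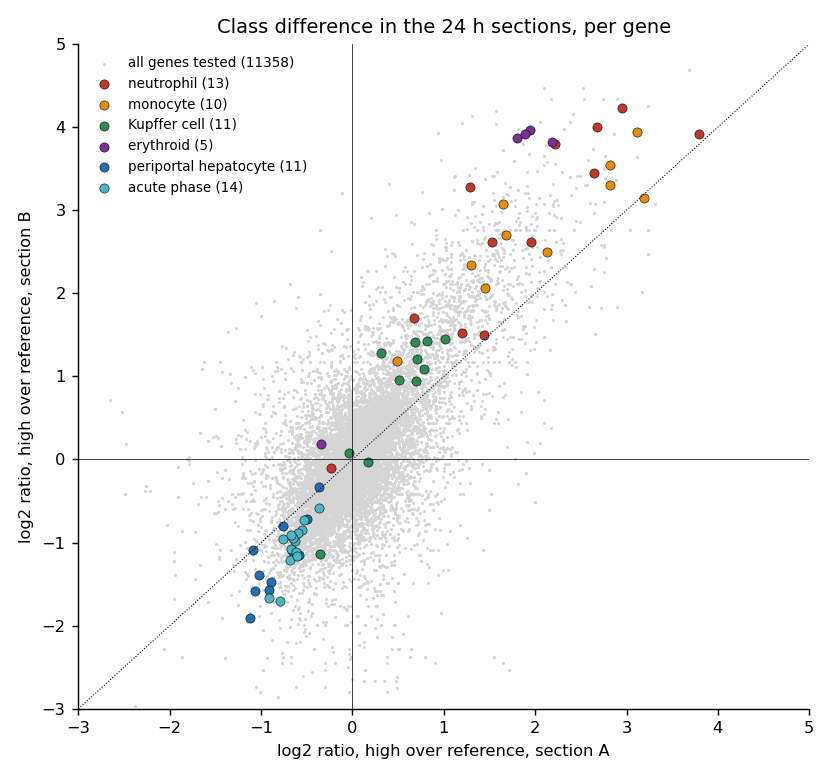
Log2 ratio of chosen over reference spots for each of 11358 genes, section A across and section B up, with 0.5 UMIs added to each count and members of 6 lists coloured. Neutrophil, monocyte and haemoglobin genes sit in the upper right, mostly above the dotted line of equal ratios, and periportal and acute phase genes in the lower left.

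Monocyte genes were higher without exception. All 10 listed genes were called, with a median of 2.27 and ratios of 0.79 to 3.52. The reference levels of F13a1 and Clec4e in A and of Ly6c2 in B lay below the filter on low counts. Each of these genes thus needed a chosen sum to be tested, and the count and median include them. F13a1, coagulation factor XIII of monocytes, led at 10.8 against 1.26 CPM in A and 34.0 against 2.18 in B (3.52, SE 0.361, edgeR adjusted p = 2.09e-05). Chil3, a chitinase-like secreted protein, was at 41.5 against 5.89 CPM in A and 135 against 11.6 in B (3.19, SE 0.1997, edgeR adjusted p = 6.9e-07). Clec4e (3.16) is the partner lectin of Clec4d. Ccr2, the receptor for Ccl2, was at 8.56 against 1.997 and 18.5 against 3.27 CPM (2.29), and Ly6c2 at 6.76 against 2.21 and 14.8 against 1.75 CPM (2.26). S100a4, another calcium-binding protein of migrating myeloid and mesenchymal cells, was also among the leading genes (2.85). The plot of the section ratios places these genes among the neutrophil genes, and S100a8 and S100a9 are themselves expressed by monocytes, so the chosen spots were rich in both kinds of transcript.

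Macrophage genes had lower medians than monocyte genes. Of 11 Kupffer cell genes 7 were higher and 4 were not called, with a median of 0.80. The complement genes C1qa (1.22), C1qc (1.10) and C1qb (0.93) and the scavenger receptor genes Marco (0.73) and Cd5l (0.95) were among those called. The 2 genes most specific to Kupffer cells were not called, Clec4f at 104 against 92.0 CPM in A and 73.8 against 75.4 in B (0.08, edgeR adjusted p = 0.759) and Timd4 at 9.46 against 9.92 CPM in A and 8.12 against 7.97 in B (-0.03, adjusted p = 0.96). Their signs changed with the settings. Of 11 genes of lesion macrophages 9 were higher, led by the elastase gene Mmp12 (2.44), at 126 against 25.4 CPM in A and 117 against 19.2 in B. Lgals3 (1.85) and Trem2 (1.74) were higher too. Spp1 (-0.26) and Fabp5 (-0.03) were not called. Of 10 lymphocyte genes 1, Igkc, could be tested and it was not called (0.50).

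Of 9 chemokine genes that act on other receptors 7 were higher, with a median of 2.01. Ccl2, the main attractant of monocytes, was at 151 against 38.9 CPM in A and 177 against 24.9 in B (2.35, SE 0.185, edgeR adjusted p = 3.04e-06). Its neighbour Ccl7 was at 114 against 24.5 and 115 against 15.3 CPM (2.52, edgeR adjusted p = 1.26e-06), and Ccl4 was higher by 2.26. Ccl9 (0.18) and Cxcl9 (0.94) were not called.

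Of 11 cytokine genes 5 were higher, 1 was not called and 5 were too sparse to test. Il1b, the inflammasome-processed cytokine, was at 39.2 against 10.4 CPM in A and 94.5 against 11.9 in B (2.43, SE 0.228, edgeR adjusted p = 9.97e-06). Its antagonist Il1rn was at 32.0 against 8.23 and 103 against 20.4 CPM (2.16), Tnf was higher by 2.21 and Acod1, which makes itaconate in activated myeloid cells, by 3.13. Il1a was not called (0.48). The IL-6 gene Il6 and the G-CSF gene Csf3 had at most 0.738 CPM in any sum.

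Adhesion genes included members of both the cells and the vessel wall. Selp, the P-selectin on which leukocytes roll, was at 10.4 against 1.05 CPM in A and 11.1 against 1.31 in B, with a log2 fold change of 3.20 (SE 0.408, edgeR adjusted p = 0.000119). The integrin genes Itgam (2.73), Itgb2 (1.95) and Itgal (1.57), the selectin ligand gene Selplg (2.12), Pecam1 (1.35) and Vcam1 (0.65) were also higher. Icam1 was not called (-0.05), at 44.6 against 44.9 CPM in A and 56.8 against 60.9 in B, and its sign changed with the settings. The E-selectin gene Sele was all but undetected, at 0.0701 CPM at most. In counts, 7 of 9 genes were higher, with a median of 1.76 over the 8 tested. Selp, like Retnlg, entered the test only through its level in the chosen spots, which fixed its direction.

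Of 5 erythroid genes 4 were higher, with a larger ratio in section B than in A. Hbb-bs was at 547 against 147 CPM in A and 3429 against 228 in B (2.91, SE 0.522, edgeR adjusted p = 0.0200). Hba-a1 (2.97), Hba-a2 (2.86) and Hbb-bt (3.05) followed it, and since the copies of each pair are nearly identical, the split of reads within a pair is uncertain. Alas2, the haem synthesis gene of red cell precursors, was not called, at 15.8 against 20.2 CPM and 22.9 against 20.3 (-0.12). The calls depended on the fit. With the spread of all 8 injured sections and both 24 h sections kept, Hbb-bs, Hba-a1 and Hba-a2 were not called (edgeR adjusted p 0.0517 to 0.0661) at 2.85 to 2.95. In that form the 4 genes were at 3.81 to 3.95 without section A (0.0628 to 0.0846) and at 1.77 to 2.15 without section B (0.354 to 0.444). Under total-count scaling they were at 3.08 to 3.27 and not called (0.104 to 0.184).

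The platelet gene Pf4 was at 56.8 against 13 CPM in A and 178 against 14.8 in B (2.84, SE 0.292, edgeR adjusted p = 0.000261). Gp9 was higher (1.84), Itga2b was not called (0.35) and 3 other platelet genes were not tested, with Ppbp at 8.12 CPM in the chosen spots of B. When the 5% of spots richest in haemoglobin were left out of both classes, 98 chosen spots remained in A and 49 in B, and 974 genes were called higher and 746 lower. Of these, 922 and 693 were also called with all spots. The calls of Pf4 (2.75, adjusted p = 0.191) and of Thbs1 (2.96, adjusted p = 0.149) were lost there at nearly the same fold change. How far haemoglobin-rich spots bear on the other values was not tested beyond this.

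Genes of fibrinolysis and matrix turnover formed a further group. Of 9 listed genes 5 were higher, 2 were not called and 2 were not tested, with a median of 2.30. Thbs1, thrombospondin 1, a platelet and macrophage matrix protein, was at 100 against 20.3 CPM in A and 223 against 14.1 in B (3.08, SE 0.406, edgeR adjusted p = 0.00776), and its call was also lost under total-count scaling. Timp1, an inhibitor of metalloproteinases, was at 99.1 against 21.5 and 261 against 30.1 CPM (2.65), and the urokinase receptor gene Plaur was higher by 2.36. Tnc, the wound matrix protein tenascin C, was at 70.3 against 16.2 CPM in A and 109 against 7.86 in B (2.81).

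Il11, a cytokine of injured epithelia and stroma, ranked high among all genes, at 22.1 against 3.05 CPM in A and 51.7 against 3.38 in B (3.34, SE 0.283, edgeR adjusted p = 4.09e-06). Capg, an actin-capping protein of macrophages and migrating cells, was at 48.7 against 7.18 and 74.5 against 7.09 CPM (3.03). Neither belongs to any list.

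Of 14 genes known from migrating hepatocytes and epithelial repair 10 were higher and none lower, with a median of 1.26. Anxa2, a membrane and actin-binding protein, was at 146 against 62.3 CPM in A and 239 against 79.4 in B (1.41, SE 0.148, edgeR adjusted p = 2.35e-05), Cd44 was higher by 2.17 and S100a6 by 1.60. The keratin genes Krt8 (0.45) and Krt18 (0.11) were not called. The study also reports Anxa2 in white cells, mesenchymal cells and endothelium of injured mouse liver. Which cells carried the RNA of this list was not tested. All 8 immediate early genes were higher (median 1.396), led by Fosl1 (1.67) and Atf3 (1.57).

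Of 10 chaperone genes 6 were higher, with Hspa1a at 460 against 124 CPM in A and 187 against 71.2 in B (1.67), a value whose split from the near-copy Hspa1b (1.51) is uncertain. Haem oxygenase Hmox1 was at 106 against 44.9 CPM in A and 312 against 54.3 in B (1.89, edgeR adjusted p = 0.00137), and 4 of 10 oxidative stress genes were higher in all. The metallothionein genes Mt1 (-0.12) and Mt2 (-0.03) were not called. Of 12 hypoxia and glycolysis genes 3 were higher, led by Pkm (1.78) and Slc2a1 (1.52). None of 8 interferon response genes and none of 3 tested proliferation genes was called.

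Genes for the uptake of dead cells were higher in 5 of 8 cases, led by the receptor tyrosine kinase gene Axl (1.48) and the scavenger receptor gene Cd36 (1.34).

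Stromal and vascular genes were mixed. Of 10 stellate cell and myofibroblast genes 6 were higher, led by Acta2 at 138 against 47.3 CPM in A and 157 against 31.1 in B (1.91). The quiescent stellate markers Lrat (-0.04) and Reln (0.29) were not called. Of 10 sinusoidal endothelial genes 2 were higher and 2 lower. Lyve1 was higher (1.69) and Clec4g lower, at 22.5 against 50.1 CPM in A and 17.0 against 45.8 in B (-1.26, SE 0.194, edgeR adjusted p = 0.000519). Neither Sox9 nor Krt19, the bile duct genes that could be tested, was called.

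**Figure D3:**
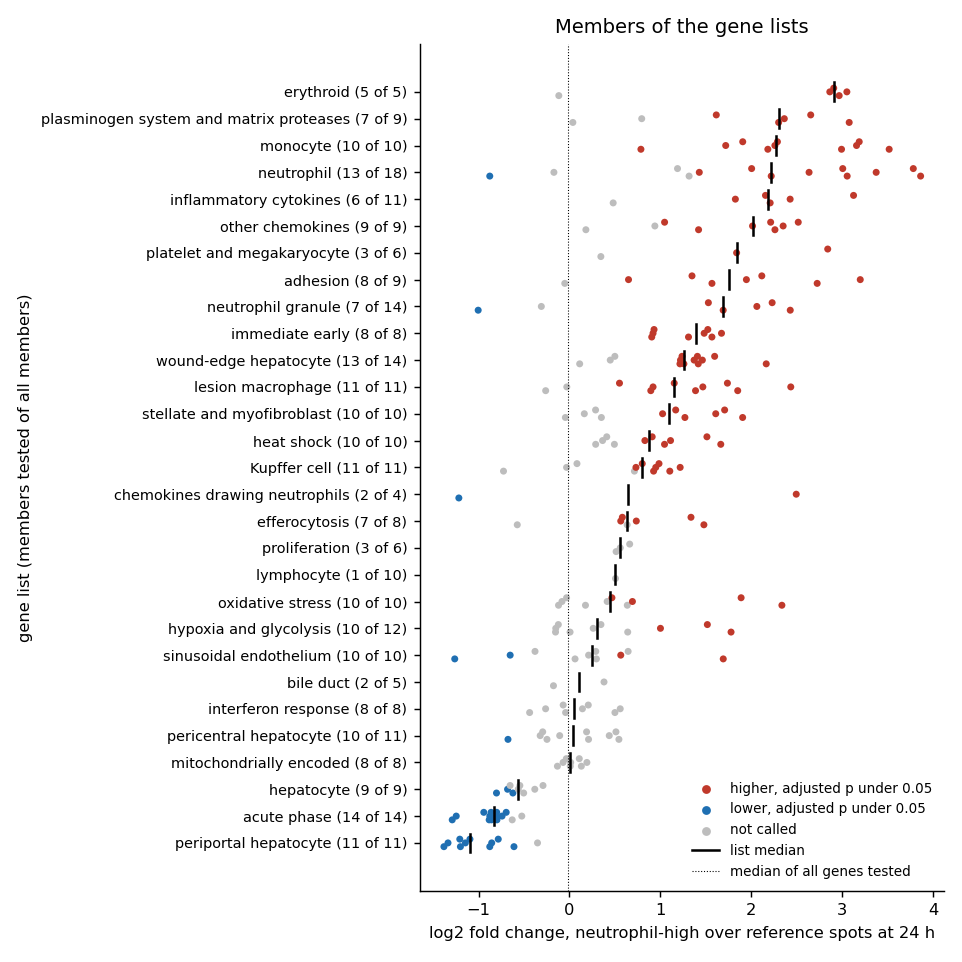
Log2 fold change of chosen over reference spots for each tested member of 29 gene lists, ordered by median, with red points called higher, blue points called lower and grey points not called. The erythroid, protease, monocyte, neutrophil, cytokine, other chemokine, platelet, adhesion and granule lists sit at the top with medians of 1.69 or more, and acute phase and periportal genes at the bottom at -0.83 and -1.09.

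Periportal hepatocyte genes were lower and most pericentral genes were not called. Of 11 periportal genes 10 were lower, with a median of -1.09. Pck1, the entry enzyme of gluconeogenesis, was at 123 against 259 CPM in A and 428 against 1282 in B (-1.34, SE 0.178, edgeR adjusted p = 0.000169), and Aldh1b1 at 37.4 against 81.8 and 12.5 against 48.4 CPM (-1.38). Ass1 of the urea cycle was not called (-0.35). Of 11 pericentral genes 1 was lower, Rgn (-0.68), and the median was 0.04. Cyp2e1, which turns APAP into its toxic product, was at 470 against 433 CPM in A and 294 against 237 in B (0.21, adjusted p = 0.393).

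Of 9 secreted hepatocyte genes 3 were lower, and their median was -0.56. Alb was at 35017 against 48600 CPM in A and 37564 against 59104 in B and was not called (-0.56, adjusted p = 0.14). Acute phase genes, the hepatocyte answer to IL-1 and IL-6, were lower in the same spots. Of 14, 12 were called lower, with a median of -0.83. Saa1 was at 1246 against 2342 CPM in A and 1337 against 4257 in B (-1.29, edgeR adjusted p = 0.00101), and Saa2 at 382 against 663 and 446 against 1454 (-1.25). The split of reads between these copies is uncertain. With the spread of 8 injured sections Saa2 was not called, at -1.27 with both 24 h sections (edgeR adjusted p = 0.0743), -1.72 without A and -0.82 without B. Inhbe (-1.36), the hydroxysteroid dehydrogenase genes Hsd17b6 (-1.28) and Hsd17b13 (-1.21), the glycogen regulator Ppp1r3c (-1.24), Fam47e (-1.20) and Sds (-1.20) completed the 12 genes of at least 20 CPM that fell most. Aldh1b1 was called with that spread and both sections (edgeR adjusted p = 0.017), but not without A (-1.96, 0.143) or without B (-1.16, 0.318). Under total-count scaling the medians of the periportal, acute phase and hepatocyte lists were -0.87, -0.61 and -0.34.

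Levels were then followed outwards from the chosen spots, as UMIs per 1000000 UMIs of unscaled sums and without a test, since 2 sections cannot reach a p below 0.5 in an exact paired permutation. The 8 other neutrophil genes together were at 47.8 in the chosen spots of A, 14.3 in spots that touched them, 6.29 at 2 steps and 6.68 at 3 or more. In B they were at 245, 51.7, 19.2 and 19.6. Most of the excess was thus gone in the touching spots, and at 2 steps the level was near that at 3 or more. Monocyte genes went from 1016 to 442, 295 and 288 in A and from 1607 to 600, 237 and 266 in B.

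The same genes followed the density of S100a8 and S100a9 below the top class. In A the 8 other neutrophil genes were at 6.34 in spots with no UMI of the pair, 9.06 in those up to the 75th percentile, 12.7 up to the 90th, 21.0 up to the 95th and 47.8 in the top class. In B they were at 14.7, 17.5, 47.8, 116 and 245. In both sections the level rose from class to class, and the largest step was the last.

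Spots were also chosen by the 8 other genes alone, which took 35 of the 127 chosen spots in A and 46 of the 83 in B. S100a8 was then at 81.8 against 12.4 CPM in A and 391 against 30.7 in B, and S100a9 at 79.7 against 15.6 and 420 against 37.9. With that choice 1101 genes were called higher and 841 lower, of which 879 and 636 were called with the first choice too. The pair and the other genes thus overlapped but did not pick out the same spots.

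Touching spots of the reference, with no UMI of S100a8 or S100a9, lay between. The neutrophil genes were at 8.57 in 319 of them in A against 5.90 in 861 reference spots at 3 or more steps, and at 31.6 in 34 of them in B against 11.6 in 422. Ccl2 was at 52.3 against 34.9 in A and 75.5 against 17.9 in B, and Saa1 at 1716 against 2468 and 2526 against 4139. In both sections these touching spots held more of the neutrophil genes and of Ccl2, and less of Saa1, than the far ones.

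Wound-edge genes, the list with Anxa2 whose cell source was not tested, were still high in the touching spots. In B they were at 5494 in the chosen spots and 5492 in the touching ones, and fell to 2838 at 2 steps. In A they were at 4761, 3877 and 2977. Periportal genes ran the other way, from 2000 to 2268, 2949 and 3111 in A and from 2526 to 2874, 4399 and 4486 in B. Acute phase genes did likewise.

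**Figure D4:**
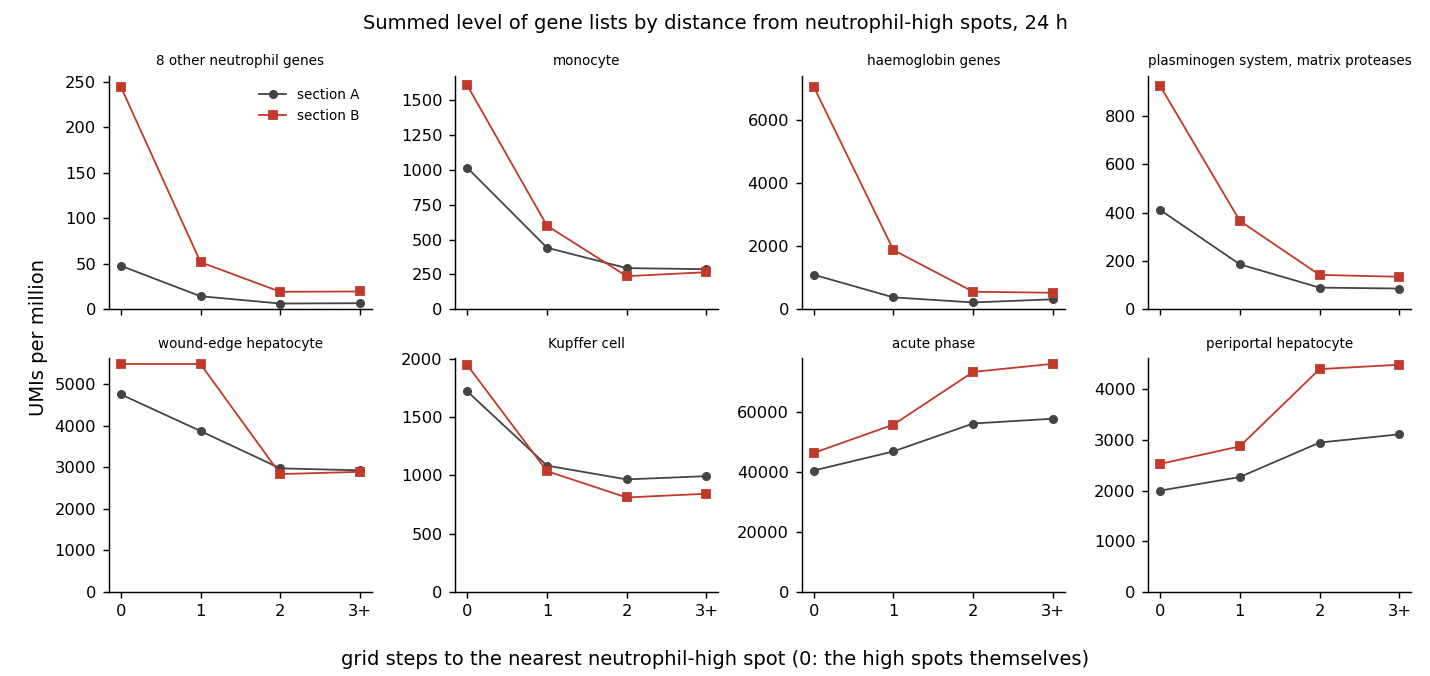
Summed level of 8 gene groups in UMIs per 1000000 UMIs against the number of grid steps from the nearest neutrophil-high spot, with step 0 for the chosen spots and 3+ for 3 or more steps, section A in grey circles and section B in red squares. Neutrophil, monocyte, haemoglobin and protease genes fall steeply over the first step, while wound-edge genes in B are as high at 1 step as at 0 and periportal and acute phase genes rise with distance.

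Because the chosen spots were poorer in hepatocyte RNA, a second comparison paired each with a spot of like hepatocyte share and depth from the 50% of spots in the section lowest in S100a8 and S100a9. Pairs were found for 113 chosen spots in A and 83 in B. Median hepatocyte shares were 10.7% against 10.8% in A and 10.6% against 11.4% in B, and in B 12 of the partner spots held at least 1 UMI of the pair. edgeR called 578 of 9174 genes higher (6.3%) and 137 lower (1.49%), with a median of -0.00 over all genes. This fit gave all genes the same spread, and with the spread taken from 8 injured sections 530 of the higher and 132 of the lower calls held. DESeq2 called 89 higher and 4 lower.

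Of 18 neutrophil genes 7 could be tested here, 5 were higher in both fits and 2 were not called. None was lower, so the lower call of Wfdc21 beside reference spots was not kept. Csf3r was at 14.4 against 1.49 CPM in A and 48.8 against 5.53 in B (3.15). Both partner levels of Csf3r lay below the filter on low counts, so it entered this test only through the chosen spots, which fixed its direction. The same may hold for other sparse genes here, and the counts and medians include them. Clec4d was at 20.6 against 5.97 CPM in A and 92.7 against 14.2 in B (2.37). Retnlg had 13 UMIs against 0 in A and 32 against 1 in B, too few in the partner spots for a fold change. All 5 tested oxidase genes were higher, by 1.16 to 2.07. No gene of the granule list was lower here, so the lower call of Lcn2 was not kept either. Of 10 monocyte genes 8 were higher and 7 held with the shared spread. Pla2g7, the platelet-activating factor hydrolase of macrophages, was at 18.5 against 3.98 CPM in A and 58.5 against 11.1 in B (2.32, SE 0.318, edgeR adjusted p = 3.67e-11). Il1b was at 42.2 against 13.9 and 104 against 12.6 CPM (2.28), Chil3 was higher by 2.27, Thbs1 by 2.24 and Pf4 by 2.18. The haemoglobin genes were higher by 2.19 to 2.42, but with the shared spread their adjusted p was 0.0766 to 0.0969 and no call held.

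The medians of the other lists moved either way. Of 11 periportal genes 0 were called, and the median over the same genes went from -1.09 to -0.05. The acute phase median went from -0.83 to -0.18, with 3 of 14 genes still lower. The heat shock median went from 0.87 to 0.23 and the immediate early median from 1.396 to 0.54. The Kupffer cell median was 0.79 against 0.80 before, and 7 of 11 genes were higher. The mitochondrial median went from 0.01 to 0.28, with 3 of 8 genes called higher and none of those calls kept with the shared spread, and the pericentral median went from 0.04 to -0.20.

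Clec4g was the lowest of the genes with at least 20 CPM, at 24.7 against 51.2 CPM in A and 18.7 against 37.9 in B (-1.04, SE 0.225, edgeR adjusted p = 0.000168). It encodes a lectin of sinusoidal endothelium. The other genes lower by most were Etfbkmt (-0.89), the polyamine oxidase gene Paox (-0.86), Zadh2 (-0.82), the stress regulator Nupr1 (-0.80), Cryz (-0.79), Cdk5 (-0.77), the tight junction gene Cldn2 (-0.77), Chmp7 (-0.76) and Fmo1 (-0.76). Of the pericentral genes, Lect2 (-0.54) and Rgn (-0.50) were lower.

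**Figure D5:**
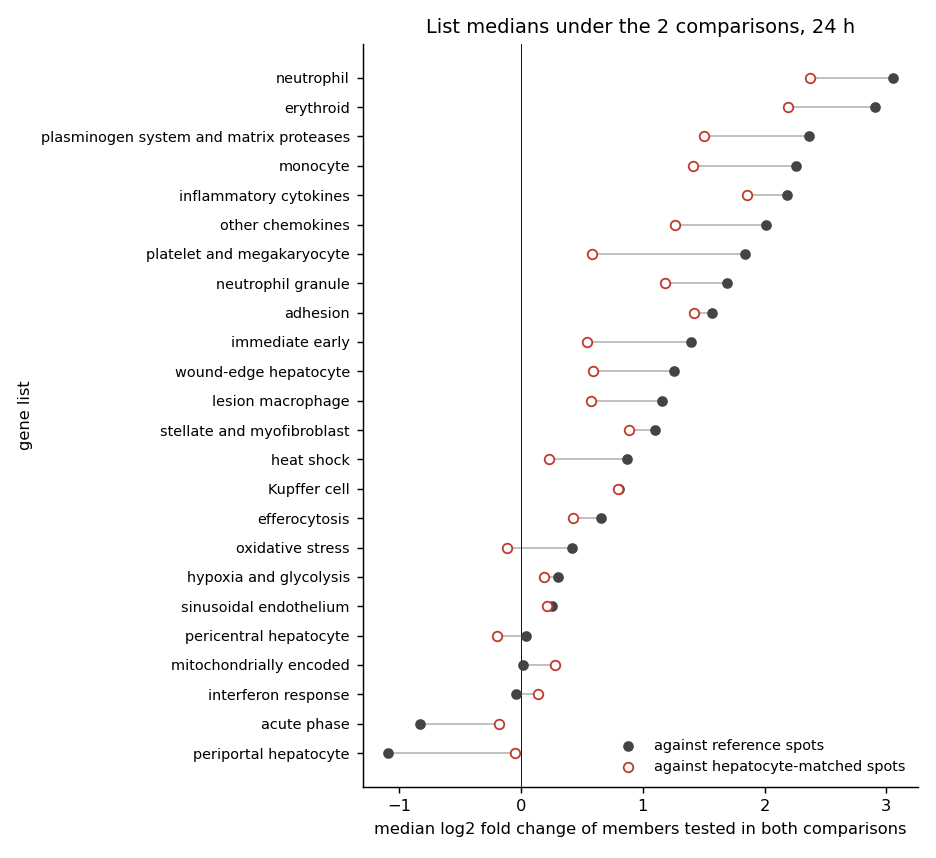
Median log2 fold change of 24 gene lists with at least 3 members tested in both comparisons, against reference spots (filled) and against spots matched on hepatocyte share and depth (open). The neutrophil median moves from 3.06 to 2.37, the erythroid median from 2.91 to 2.19, and the periportal median from -1.09 to -0.05.

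The class difference at 24 h was finally set against those at 36 h and 48 h, formed by the same rule in 2 and 4 sections, to ask what was particular to 24 h. The value tested was the signed class difference at 24 h minus that at the later time, so it is also positive where a gene was lower in the chosen spots only later. Both comparisons use the same 24 h sections. Against 36 h, 6 of 13098 genes differed, all with a positive value (0.0458%) and none with a negative one. At an unadjusted p under 0.05, 913 genes differed, and DESeq2 called 5 and 0. Against 48 h, 405 genes had a positive value (3.09%) and 133 a negative one (1.02%). Of those calls 75.3% were positive with TMM and 34.9% with total-count scaling, which lowered the median gene by 0.19.

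No gene of the neutrophil list was called against 36 h, and 1 of the 17 tested, Msrb1, against 48 h. Msrb1 was not called between chosen and reference spots at 24 h. The section ratios of Csf3r were 2.61 and 3.43 at 24 h, 1.82 and 1.87 at 36 h and 2.07 to 2.90 at 48 h on the log2 scale. Those of Retnlg were 3.76 and 3.91, then 3.08 and 2.73, then 3.51 to 4.63. No monocyte gene was called at either time. A miss of the threshold with 2 sections does not show that the values were alike.

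Tm4sf1, a surface protein of activated endothelium, differed between 24 h and both later times. It was higher in the chosen spots by 1.39 and 2.78 in the 24 h sections, and its ratios lay between -0.47 and -0.04 in all 6 later sections. The difference was 2.22 (SE 0.338, edgeR adjusted p = 0.014) from 36 h and 2.27 (SE 0.263, adjusted p = 4.67e-05) from 48 h. Timp3 was at 1.48 and 2.16 at 24 h and at -0.01 and -0.11 at 36 h (difference 1.86, SE 0.240, edgeR adjusted p = 0.00084). The hepatocyte enzyme genes Cyp3a11 and Akr1c19 differed by 1.21 and 1.09 from 36 h. Cyp3a11 was at 0.36 at 24 h and -0.85 at 36 h, and Akr1c19 at 0.45 and -0.64.

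Against 48 h the activin gene Inhba differed most among the genes with at least 20 CPM, at 0.86 and 2.26 in the 24 h sections and -1.44 to -0.47 at 48 h (difference 2.31, SE 0.320, edgeR adjusted p = 0.000311). Ankrd1 (1.94) was at 2.44 at 24 h and 0.50 at 48 h, and Ccl24 (1.77) at 1.59 and -0.19. The hepatocyte carbonic anhydrase gene Car3 (1.75) was instead at -0.10 at 24 h and -1.86 at 48 h. Values were negative for the collagen gene Col3a1 (-1.40), Spp1 (-1.47), Fabp5 (-1.56), Nupr1 (-1.30) and Hmgn2 (-1.16). None of them was called beside reference spots at 24 h, though Nupr1 was lower beside matched spots (-0.80). Of the lists, 3 of 11 lesion macrophage, 3 of 11 Kupffer cell and 2 of 10 stellate genes had a negative call. Col3a1 had ratios of 0.43 and 0.15 at 24 h and 1.48 to 2.01 at 48 h. All 10 of these calls were kept under total-count scaling.

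All 8 mitochondrially encoded genes differed between 24 h and 48 h, by 0.86 to 1.09, and by 0.67 to 0.90 under total-count scaling. At 24 h none of them was called, with a median of 0.01, and at 48 h they were lower in the chosen spots, from -0.87 for mt-Nd1 to -1.18 for mt-Cytb. Positive calls were also made for 5 of 10 heat shock, 5 of 10 tested pericentral and 5 of 11 periportal genes. The median hepatocyte share of chosen spots was 10.7% and 10.6% at 24 h and 7.67% to 11.3% at 48 h. It was 12.6% and 11.8% at 36 h. In the reference spots of these sections it was 13.9% to 17.5%, and the part of this gap in the differences was not tested.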

How the data were processed

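The authors deposited raw UMI counts per gene and spot, written by Space Ranger 1.0.0 per the submitters' processing notes, which also name Seurat 4.1.1 and mm10, with no normalisation and no spot filter. Groups and times were taken from the labels, and the tissue mask and grid positions from the deposited position files. The manual removal of isolated spots described in the study was not repeated. The passing spots of a section held 31292663 to 67045372 UMIs. Spots of a section are not replicates, so counts were summed per section and class and tested with edgeR 4.0.16 in R 4.3.3 (filterByExpr, TMM, robust quasi-likelihood fit, two-sided, Benjamini-Hochberg over all genes tested). The block for the section comes from the design, since both classes lie in the same section. Partner spots were the nearest in log2 hepatocyte share (within 0.25) and log2 total UMIs (within 0.5), taken without replacement. The class differences at 24 h, 36 h and 48 h came from a single fit of 8 injured sections. DESeq2 1.42.0 and the other alternatives are given with the limits. Scripts were tested on simulated data.

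The spots and the 29 gene lists were chosen with earlier results of these data known. Named genes were all detected neutrophil genes, the leading members of each list, the 12 genes that changed most in either direction in the comparison with reference spots, 10 in the matched comparison and 5 in each comparison of times, with the same sign in both sections and a mean of at least 20 CPM. Other list members, Ptgis and the genes under other observations were named after their values were seen. Of the listed genes, Aldoa was not matched by symbol. Gene positions are those of GENCODE on GRCm38, the build also called mm10. Some genes that the rule would name are not reported here.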

Additional observations from a re-analysis of the deposited data

Results flagged for a closer look

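For the genes below the difference between chosen and reference spots itself differed between times by the interaction test of the fit over 8 sections. The signed class difference at 24 h minus that at 36 h was positive on the log2 scale for Tm4sf1 (2.22), Timp3 (1.86), Cyp3a11 (1.21) and Akr1c19 (1.09). Minus that at 48 h it was positive for Inhba (2.31), Tm4sf1 (2.27), Ankrd1 (1.94), Ccl24 (1.77) and Car3 (1.75), and negative for Fabp5 (-1.56), Spp1 (-1.47), Col3a1 (-1.40), Nupr1 (-1.30) and Hmgn2 (-1.16). Cyp3a11 and Akr1c19 were at 0.36 and 0.45 at 24 h and at -0.85 and -0.64 at 36 h, and Car3 was at -0.10 at 24 h and -1.86 at 48 h. Mouse and time cannot be told apart in these values.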

How the results depend on the processing

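Beside reference spots, the calls of 1169 genes higher and 855 lower became 1965 and 400 with total-count scaling, 521 and 328 with DESeq2, and 417 and 221 with spots thinned to 5000 UMIs, while 1398 were lower with the spread of 8 injured sections. A fit without a 24 h section takes its spread from the other injured sections, so it is set against that fit with both sections, which called 1469 and 1398. It ranged from 530 to 1196 higher and from 284 to 1000 lower, with both low values without section B. Beside matched spots, the 578 and 137 calls became 89 and 4 with DESeq2 and were 609 and 324 with the shared spread. In that form they ranged from 175 to 482 and from 27 to 286 without a section, lowest without B. Calls against 36 h, 6 and 0, became 3 higher with total-count scaling and 70 and 11 with no filter on low counts. Without 1 section they ranged from 0 to 56 and from 0 to 4, with 56 and 4 without 24 h A, 0 higher without 36 h B and 12 without 48 h D. Calls against 48 h, 405 and 133, became 240 and 448 with total-count scaling, 656 and 228 with no filter, and 270 and 48 with DESeq2. They ranged from 126 to 750 and from 22 to 263. The low values came without 24 h A and the high ones without 48 h D, and 217 and 62 were called without 48 h A, 265 and 66 without 48 h B, and 84 lower without 48 h C. The causes were not tested.

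Both classes lie in the same section, so the section is a replicate block. Without the block 209 genes were higher and 10 lower beside reference spots, and 0 and 0 beside matched spots (700 at an unadjusted p under 0.05 in edgeR), against 36 h (370) and against 48 h (911).

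Of 1623 values of 117 named genes beside reference spots, 1390 kept direction and side of the threshold, 181 lost and 14 gained the call, and 38 changed sign, none of them called. These were, with total-count scaling, Msrb1 0.047, Timd4 0.18, Lrat 0.17, Icam1 0.16 and Isg15 0.14. With no filter they were mt-Nd1 -0.048 and mt-Nd2 -0.052, and with the shared spread mt-Nd1 -0.013 and mt-Nd2 -0.018. In the top 2% they were Clec4f -0.026, Icam1 0.0089, mt-Nd1 -0.039 and mt-Nd2 -0.076, in the top 10% Clec4f -0.014 and Krt19 -0.26, and beside the bottom 50% mt-Nd2 -0.028. In thinned spots they were Clec4f -0.096, Timd4 0.71, Reln -0.025, Il1a -0.013, Icam1 0.29 and Isg15 0.10. In spots chosen by the 8 other genes they were Timd4 0.089, Lrat 0.20, Icam1 0.0079 and mt-Nd2 -0.026. Without haemoglobin-rich spots, a setting added after seeing the data, they were Lrat 0.11, Il1a -0.086, mt-Nd1 -0.054 and mt-Nd2 -0.041. With either 24 h section left out Clec4f ranged from -0.048 to 0.14, Timd4 from -0.096 to 0.011, Spp1 from -0.66 to 0.11, Il1a from -0.019 to 1.26, Krt19 from -0.59 to 2.70, Isg15 from -0.24 to 0.010, mt-Nd1 from -0.24 to 0.22 and mt-Nd2 from -0.20 to 0.17.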

Other observations

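Genes in no list were looked up after their values were seen. They were picked for their values, so they speak for no group of genes. The thrombomodulin gene Thbd was at 52.3 against 12.3 CPM in A and 148 against 17.5 in B (log2 fold change 2.58, edgeR adjusted p = 3.22e-06). Cdh5, the cadherin of endothelial junctions, was at 52.3 against 24.5 and 112 against 27.4 CPM (1.56), Emcn was higher by 1.75 and Tie1 by 1.34, and Vwf was not called (0.74). Beside matched spots the values were 1.71 for Thbd, 1.05 for Cdh5, 1.22 for Emcn and 1.03 for Tie1, all called.

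Ereg, a ligand of the EGF receptor, was at 12.6 against 2.10 CPM in A and 28.8 against 3.38 in B (2.82, edgeR adjusted p = 4.96e-05). Hbegf was higher by 1.98 and Lif by 2.40. Lif had 4 UMIs in the chosen and 14 in the reference spots of A, and 7 and 6 in those of B. Both reference levels of Lif lay below the filter on low counts. Lif thus entered the test only through the chosen spots, which fixed its direction. The YAP target gene Ankrd1 was at 69.0 against 15.1 and 41.3 against 4.91 CPM (2.48), with Ctgf higher by 1.86 and Cyr61 by 1.64. Cd74, the invariant chain of MHC class II, was at 153 against 58.2 CPM in A and 206 against 45.2 in B (1.77), and H2-Aa was higher by 1.95. Ptgis, the prostacyclin synthase gene, was also called between 24 h and 36 h (3.17, edgeR adjusted p = 0.0212) and had under 20 CPM.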
